A study of Homo sapiens with 8 samples.

Results

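The genes described are 8 members of the REST and CoREST family of neuronal repressors: REST, RCOR1, RCOR2, RCOR3, HMG20B, SIN3A, SIN3B and NCOR1. They were taken by symbol from the deposited count table, in which each of the 8 had a row among 35238 gene symbols. All 8 passed the filter on low counts and were among the 15085 genes tested. REST is a zinc finger protein that binds a DNA element called RE1 and keeps neuronal genes off in cells that are not neurons. One of its repressor domains recruits SIN3 with histone deacetylases (HDAC), and another recruits CoREST, a complex of an RCOR scaffold, the histone demethylase KDM1A, HDAC1 and HDAC2, with HMG20B as a DNA-binding subunit. NCOR1 is a scaffold that brings HDAC3 to many repressors and has also been described as a partner of REST.

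The cells were MP38, a BAP1-mutant uveal melanoma (UM) cell line, so all groups shared this mutation and came from a single line. Control cells received 0.1% DMSO alone for 24 h. The other groups received 40 nM romidepsin, 40 nM quisinostat or 1200 nM mivebresib for 24 h in the same 0.1% DMSO. Romidepsin and quisinostat inhibit HDAC enzymes, whereas mivebresib is an inhibitor of the BET bromodomains. Duplicate wells gave 2 bulk RNA libraries for each of the 4 treatments, and p-values therefore measure the spread between wells.

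RE1 is the link between these repressors and the genes they act on, and its core, CAGCACC and GGACAG with any 2 bases between them, was searched on both strands in RefSeq promoter windows (GRCh38.p14, 250 bases before to 50 bases after each start). The core was found letter for letter in the windows of 16 of 27305 genes (0.0586%). From a list of 42 known REST target genes, 30 had a window, and the core was present in 3 of them (10%), and 1 more had it at 1 mismatch. These 4 sites are shown because they are the sequence that REST reads, with the core in capitals.
SYN1, chrX:47620074-47620088, minus strand: cttCAGCACCGCGGACAGtgc
GRIA2, chr4:157220392-157220406, minus strand: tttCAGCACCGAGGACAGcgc
DRD3, chr3:114178966-114178980, minus strand: tttCAGCACCAAGGACAGaac
VGF, chr7:101165561-101165575, plus strand, 1 mismatch: cttCAGCACGCTGGACAGcgc
The SYN1 core lay 216 bases before the start of the gene for synapsin, a protein of synaptic vesicles, and the VGF core spanned the start of a gene for a secreted neuropeptide precursor. None of the 11 windows of the 7 repressor genes with a window held the core, even when 2 mismatches were allowed, which 2.49% of all genes then did. RCOR2 was not matched to a window. A match describes letters only, and these windows leave out introns and distant elements.

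Total counts per library ran from 28483235 to 29359024. Control replicates differed more than drug replicates, with a chi-square statistic per degree of freedom of 58.1 against 9.52 to 9.79. The melanocytic genes MLANA, PMEL, TYR, TYRP1, DCT, MITF and SOX10 together reached 3563 to 5452 CPM (counts scaled to library depth with TMM factors). The largest share was TYRP1, and of the 6 tested 1 fell with romidepsin, 3 with quisinostat and 4 with mivebresib. Among all genes tested, the share that fell was 15.8% for romidepsin, 25.1% for quisinostat and 24.1% for mivebresib. The romidepsin count, 16.7% of the 6 markers, was thus near that of genes in general and rests on 1 gene. MITF, the melanocyte master regulator, fell by 1.39 with quisinostat and by 1.47 with mivebresib on the log2 scale, and SOX10 and MLANA also fell with both (adjusted p = 3.80e-06 to 8.28e-05 for the 3 genes). Summed fibroblast markers (4 genes, with only COL1A1 tested, which rose with romidepsin, log2 FC 1.51, and quisinostat, 2.58) were at 1.59 to 1.68 CPM in control, 3.99 to 5.05 with romidepsin, 8.22 to 10.5 with quisinostat and 1.06 to 1.73 with mivebresib. The 3 endothelial markers summed to 0.177 to 0.292 CPM in control, 0.413 to 0.550 with romidepsin, 0.665 to 0.764 with quisinostat and 0.360 to 0.366 with mivebresib, and the 1 tested, PECAM1, rose with quisinostat (log2 FC 1.78, adjusted p = 0.0221). The 3 epithelial and the 3 immune markers, none of them tested, summed to at most 0.448 CPM in any library. KRT5, CD3E and CDH5 were at 0 in all 8 libraries. The markers that rose or fell did so in the same libraries as the target genes described further on, and their part in the results was not tested.

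Compared per kilobase of the longest transcript, HMG20B was the most abundant of the 8 mRNAs and RCOR2 the least, in all 4 groups. Control cells held 77.4 ± 10.5 CPM per kb of HMG20B and 0.843 ± 0.0769 of RCOR2 (SD, n = 2). The other 6 genes lay between 7.57 (RCOR1) and 9.87 (NCOR1) CPM per kb in control. Their order is not given as a result, because taking the median transcript length instead placed REST second. The genes lie at separate loci: REST at chr4:56907876-56966678, RCOR1 at chr14:102592661-102730576, RCOR2 at chr11:63911221-63916844, RCOR3 at chr1:211258377-211316385, HMG20B at chr19:3572777-3579088, SIN3A at chr15:75369379-75455842, SIN3B at chr19:16829400-16880353 and NCOR1 at chr17:16029157-16218185 (GRCh38, GENCODE annotation).

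Most of these repressor mRNAs changed little, and the largest rise that held in all alternative fits was that of HMG20B with mivebresib. With romidepsin, SIN3B rose and REST fell, which is 2 of 8 genes (25%) against 31.0% of all genes tested at an adjusted p below 0.05. With quisinostat, RCOR2 and HMG20B rose and NCOR1 fell, 3 of 8 (37.5%) against 53.2% of all genes. With mivebresib, HMG20B, SIN3A, SIN3B and RCOR2 rose and 0 fell, 4 of 8 (50%) against 46.2% of all genes in either direction. Of all genes, 22.2% were higher and 24.1% lower with mivebresib. None of the 8 passed the study's threshold of a log2 fold change (FC) beyond 1.5, which 4.08%, 12.2% and 8.32% of all genes passed for romidepsin, quisinostat and mivebresib. Counted in either direction, the share of the 8 genes that changed was thus near or below that of genes in general. The share that rose with mivebresib (50%) was above the 22.2% of all genes, but it rests on 4 of 8 genes. When only the libraries compared were fitted, 2 of 8 (25%) rose with mivebresib. The share of all genes in that fit is not given. Their median log2 FC was -0.12 with romidepsin, 0.063 with quisinostat and 0.25 with mivebresib, against -0.012, -0.0036 and 0.0067 over all genes tested.

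**Figure D1:**
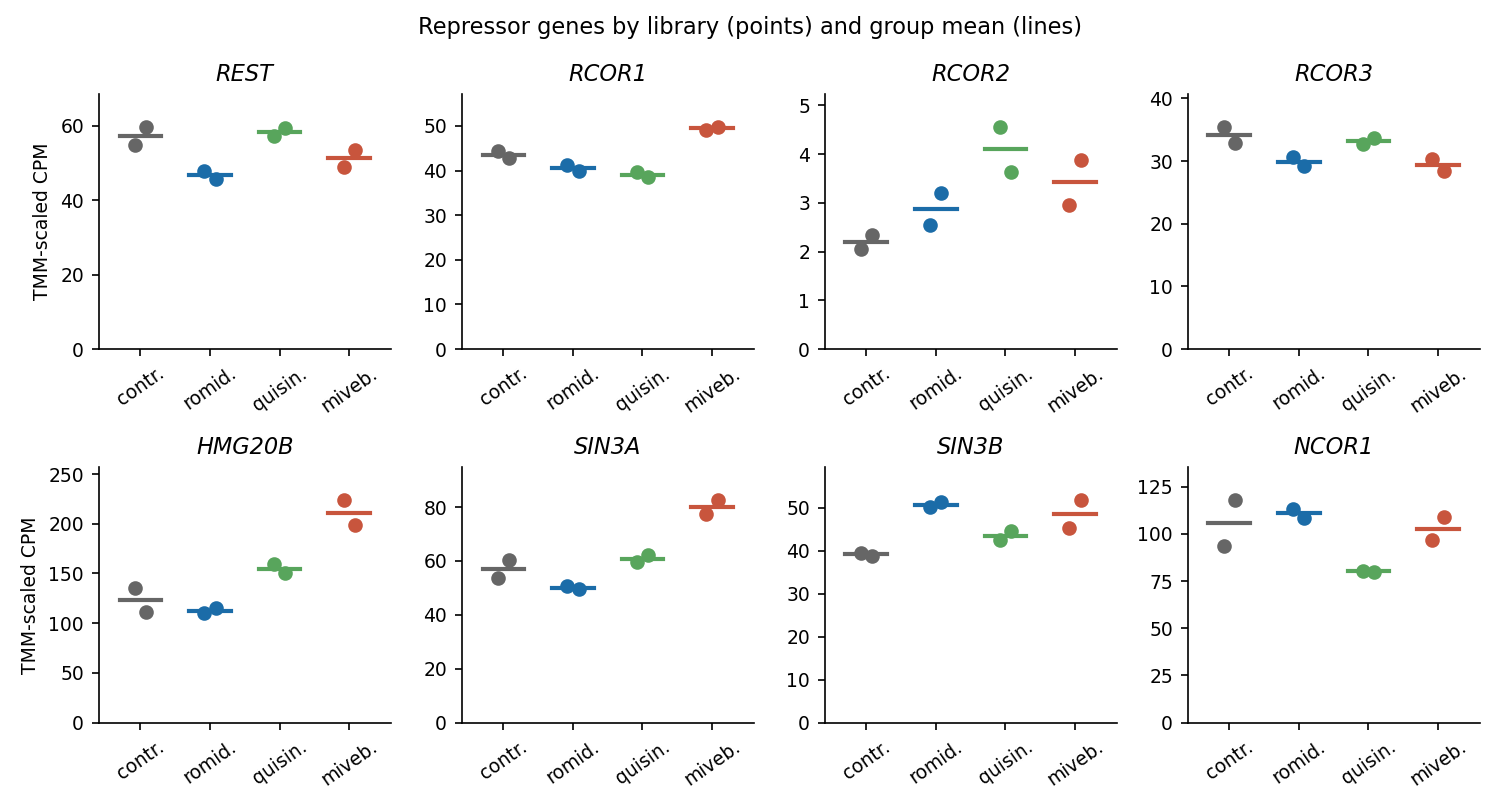
TMM-scaled CPM (vertical axes from 0) of each repressor gene in the control, romidepsin, quisinostat and mivebresib libraries, with 1 point per library and a line at the mean of the 2. The mivebresib libraries are the highest for HMG20B (198 and 224 CPM) and SIN3A (77.5 and 82.5 CPM), the romidepsin libraries are the lowest for REST (45.6 and 47.9 CPM), and the quisinostat libraries are the lowest for NCOR1 (79.8 and 80.6 CPM).

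REST, the DNA-binding subunit, was at 54.8 and 59.8 CPM in the control libraries and at 47.9 and 45.6 CPM with romidepsin. It was at 57.3 and 59.5 CPM with quisinostat and at 49.1 and 53.6 CPM with mivebresib. Both romidepsin libraries lay below all 6 other libraries, the quisinostat libraries overlapped control, and the mivebresib libraries lay just below control. REST fell with romidepsin by 0.29 on the log2 scale (SE 0.084, adjusted p = 0.0309 in edgeR's quasi-likelihood fit, Benjamini-Hochberg adjusted as throughout). No change passed with quisinostat (log2 FC 0.027, 95% interval -0.16 to 0.22, adjusted p = 0.802) or mivebresib (-0.16, -0.35 to 0.034, adjusted p = 0.156). Set directly against each other, romidepsin was below quisinostat by a log2 difference of -0.32 (adjusted p = 0.0186), a difference that did not pass without any single romidepsin or quisinostat library (-0.35 to -0.26, adjusted p = 0.0762 to 0.161). Mivebresib did not pass against either HDAC inhibitor (adjusted p = 0.223 against romidepsin and 0.0884 against quisinostat), though it was below quisinostat with library size alone (-0.36, adjusted p = 0.00639), upper-quartile factors (-0.27, 0.0266), a mean CPM of at least 5 (-0.25, 0.0320) and without control replicate 2 (-0.18, 0.0480). The fall with romidepsin did not pass without control replicate 2 (log2 FC -0.23, adjusted p = 0.0589), nor without either romidepsin or either quisinostat library (-0.33 to -0.26, adjusted p = 0.0820 to 0.162), nor with scaling by library size alone (-0.22, adjusted p = 0.0893). This fall of REST also did not pass with upper-quartile factors (-0.21, adjusted p = 0.106) or a mean CPM of at least 5 (-0.23, 0.0657). Nor did it pass when only the libraries compared were fitted (-0.27, 0.117). REST shares 23 exonic bases with a gene on the opposite strand, and the part of shared reads was not tested. In bulk RNA, fewer cells that express a gene and less of its mRNA per cell cannot be told apart. All changes are relative to the bulk of genes. Without TMM factors the median log2 FC of all genes was 0.059, 0.20 and 0.027 for romidepsin, quisinostat and mivebresib.

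The RCOR genes encode the CoREST scaffolds, which hold KDM1A and the HDAC enzymes together. RCOR1 was at 44.3 and 42.8 CPM in control, 41.2 and 40.0 with romidepsin, 39.6 and 38.6 with quisinostat and 49.1 and 49.8 with mivebresib. Both HDAC inhibitors lay below control and mivebresib above it, but no comparison with control passed (log2 FC -0.10, -0.16 and 0.18, adjusted p = 0.320, 0.100 and 0.0679). With mivebresib it did pass with upper-quartile factors (0.23, adjusted p = 0.0324) and a mean CPM of at least 5 (0.21, adjusted p = 0.0318). The drugs did differ from each other: RCOR1 was higher with mivebresib than with romidepsin (log2 difference 0.28, SE 0.072, adjusted p = 0.0114) and than with quisinostat (0.34, SE 0.072, adjusted p = 0.00380). Of these, the first did not pass without either romidepsin library or mivebresib replicate 2 (adjusted p = 0.0563 to 0.0876), and the second did not pass with library size alone (0.16, adjusted p = 0.107), which also turned the quisinostat value against control to 0.044. RCOR3, another CoREST scaffold, was at 35.5 and 32.9 CPM in control, 30.6 and 29.2 with romidepsin, 32.7 and 33.7 with quisinostat and 30.3 and 28.4 with mivebresib. Its libraries with romidepsin and mivebresib lay below control, yet it passed in no comparison (log2 FC -0.19, -0.042 and -0.22, adjusted p = 0.110, 0.692 and 0.0588). Without control replicate 2 it passed as a fall with romidepsin (-0.25, adjusted p = 0.0499) and mivebresib (-0.28, adjusted p = 0.0280), and its quisinostat value turned to 0.16 with library size alone.

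RCOR2, the scaffold best known from stem cells and neural progenitors, had the largest fold against control among the 8 genes and the fewest reads. Its counts were 58 and 64 in control, 74 and 93 with romidepsin, 144 and 114 with quisinostat and 81 and 108 with mivebresib, or 2.05 to 4.56 CPM over all libraries. All 6 drug libraries lay above both control libraries. RCOR2 rose with quisinostat by a log2 FC of 0.90 (SE 0.22, adjusted p = 0.00809) and with mivebresib by 0.64 (SE 0.22, adjusted p = 0.0440), while romidepsin did not pass (0.39, 95% interval -0.13 to 0.90, adjusted p = 0.224). Quisinostat and romidepsin did not differ at the threshold (romidepsin minus quisinostat -0.51, adjusted p = 0.0910). The quisinostat rise did not pass without quisinostat replicate 1 (0.73, adjusted p = 0.0611). The mivebresib rise did not pass by DESeq2 (adjusted p = 0.0657), by limma-voom (0.0565), with a replicate block (0.0528), or without control replicate 1, mivebresib replicate 2 or any single romidepsin or quisinostat library (0.43 to 0.64, adjusted p = 0.0510 to 0.245).

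HMG20B, the HMG-box subunit of CoREST, showed the clearest rise. It was at 135 and 112 CPM in control and at 110 and 115 CPM with romidepsin. It reached 160 and 150 CPM with quisinostat and 224 and 198 CPM with mivebresib. Romidepsin overlapped control, both quisinostat libraries lay above control, and both mivebresib libraries lay above all others. The rise with mivebresib was 1.71-fold (log2 FC 0.77, SE 0.11, adjusted p = 0.000624) and passed in all 16 alternative fits. The rise with quisinostat was smaller (log2 FC 0.33, SE 0.11, adjusted p = 0.0335) and did not pass without control replicate 2 (0.19, adjusted p = 0.116) or without any romidepsin or quisinostat library (0.29 to 0.36, adjusted p = 0.0636 to 0.151). With romidepsin the log2 FC was -0.13 (95% interval -0.38 to 0.12, adjusted p = 0.393), which turned to 0.038 without control replicate 1 and passed as a fall without control replicate 2 (-0.27, adjusted p = 0.0416). The drugs differed pairwise: mivebresib exceeded romidepsin by a log2 difference of 0.90 (adjusted p = 0.000253) and quisinostat by 0.45 (adjusted p = 0.00774), and romidepsin was below quisinostat (-0.46, adjusted p = 0.0126). Of these, only the first passed in all alternative fits: the second did not pass without quisinostat replicate 2 (adjusted p = 0.0564) or mivebresib replicate 1 (0.0647) or with library size alone (0.26, adjusted p = 0.0710), and the last not without any single romidepsin or quisinostat library (0.0621 to 0.0995). HMG20B shares 369 exonic bases with MFSD12 on the opposite strand, a gene at 648 CPM in control that itself rose with mivebresib (log2 FC 0.73, adjusted p = 0.000547), quisinostat (0.30, adjusted p = 0.0328) and romidepsin (0.32, adjusted p = 0.0430). Whether reads were counted by strand is not given in the sources used here, so the part of shared reads in the HMG20B values was not tested.

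SIN3A and SIN3B are paralogous scaffolds that carry HDAC1 and HDAC2 to the other repressor domain of REST. SIN3A was at 53.5 and 60.2 CPM in control, 50.8 and 49.4 with romidepsin, 59.7 and 62.1 with quisinostat and 77.5 and 82.5 with mivebresib. SIN3B was at 39.6 and 38.7 CPM in control, 50.1 and 51.4 with romidepsin, 42.5 and 44.5 with quisinostat and 45.4 and 51.8 with mivebresib. Mivebresib libraries were thus the highest for SIN3A, while all drug libraries exceeded control for SIN3B. SIN3A rose with mivebresib 1.41-fold (log2 FC 0.49, SE 0.085, adjusted p = 0.00173), in all 16 alternative fits, and did not pass with romidepsin (-0.18, adjusted p = 0.139) or quisinostat (0.099, adjusted p = 0.354). SIN3B rose with romidepsin 1.30-fold (log2 FC 0.37, SE 0.086, adjusted p = 0.0123) and with mivebresib 1.24-fold (0.31, SE 0.086, adjusted p = 0.0176), but did not pass with quisinostat (0.15, adjusted p = 0.164). The romidepsin rise of SIN3B did not pass without either romidepsin library (0.39 and 0.35, adjusted p = 0.0648 and 0.0786), nor the mivebresib rise without mivebresib replicate 2 (0.21, adjusted p = 0.134). With quisinostat, library size alone gave rises that passed for SIN3A (0.30, adjusted p = 0.0170) and SIN3B (0.35, adjusted p = 0.0120). SIN3A shares 206 exonic bases with a long noncoding RNA gene on the opposite strand, and the part of shared reads in its values was not tested.

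Between drugs, SIN3A was higher with mivebresib than with romidepsin by a log2 difference of 0.67 (SE 0.085, adjusted p = 0.000303) and than with quisinostat by 0.39 (SE 0.085, adjusted p = 0.00393). The first difference passed in all 16 alternative fits and the second did not pass with library size alone (0.21, adjusted p = 0.0570). Romidepsin was below quisinostat for SIN3A (-0.28, adjusted p = 0.0329), but this did not pass by DESeq2 (adjusted p = 0.0540) or without any romidepsin, quisinostat or mivebresib library (-0.29 to -0.22, adjusted p = 0.0543 to 0.236). For SIN3B no pair of drugs passed (adjusted p = 0.0761 to 0.566), but romidepsin was above quisinostat when only the libraries compared were fitted (0.26, adjusted p = 0.0125) and without control replicate 1 (0.25, 0.0261) or 2 (0.23, 0.0378).

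NCOR1, the scaffold of the HDAC3 complex, was at 93.7 and 118 CPM in control and at 113 and 109 CPM with romidepsin. It was at 80.6 and 79.8 CPM with quisinostat and at 96.8 and 109 CPM with mivebresib. Only the quisinostat libraries lay outside the range of the control libraries, and they were below all others. NCOR1 fell with quisinostat by 0.40 on the log2 scale (SE 0.11, adjusted p = 0.0176), whereas romidepsin (0.069, 95% interval -0.19 to 0.33, adjusted p = 0.674) and mivebresib (-0.041, -0.30 to 0.22, adjusted p = 0.794) did not pass. It was higher with romidepsin than with quisinostat by a log2 difference of 0.47 (adjusted p = 0.0138) and higher with mivebresib than with quisinostat by 0.36 (adjusted p = 0.0256). The fall with quisinostat did not pass without either quisinostat library (adjusted p = 0.0826 and 0.0815) or with library size alone (-0.20, adjusted p = 0.177). Both differences between drugs also did not pass without either quisinostat library (adjusted p = 0.0668 to 0.105), the first not without either romidepsin library (0.0555 and 0.0818) and the second not without mivebresib replicate 2 (0.151). The fall with quisinostat also did not pass with upper-quartile factors (-0.27, adjusted p = 0.0814) or a mean CPM of at least 5 (-0.30, 0.0590). Nor did it pass when only the libraries compared were fitted (-0.40, 0.0588). Mivebresib minus quisinostat did not pass with library size alone (0.18, 0.206), upper-quartile factors (0.28, 0.0710) or a mean CPM of at least 5 (0.29, 0.0612). NCOR1 shares 321 exonic bases with PIGL on the opposite strand, a gene at 4.11 CPM in control that passed with no drug. It also shares 188 exonic bases with an antisense gene, and the part of shared reads was not tested.

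Counted over the drug pairs, 4 of 8 genes differed between romidepsin and quisinostat against 35.6% of all genes tested, with 1 higher with romidepsin (14.6% of all genes) and 3 lower (21.0%). For mivebresib against romidepsin, 3 of 8 differed (48.9% of all genes), with 3 higher with mivebresib (23.7%) and 0 lower (25.2%). For mivebresib against quisinostat, 4 of 8 differed (57.7%), with 4 higher with mivebresib (26.2%) and 0 lower (31.5%). Between romidepsin and quisinostat, 0 genes were higher and 0 lower when any 1 library of these groups was left out, whereas library size alone gave 5 lower. Without either control library, 2 were higher with romidepsin. For mivebresib against quisinostat, with library size alone none of the 8 was higher with mivebresib than with quisinostat and 2, REST and RCOR3, were lower.

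**Figure D2:**
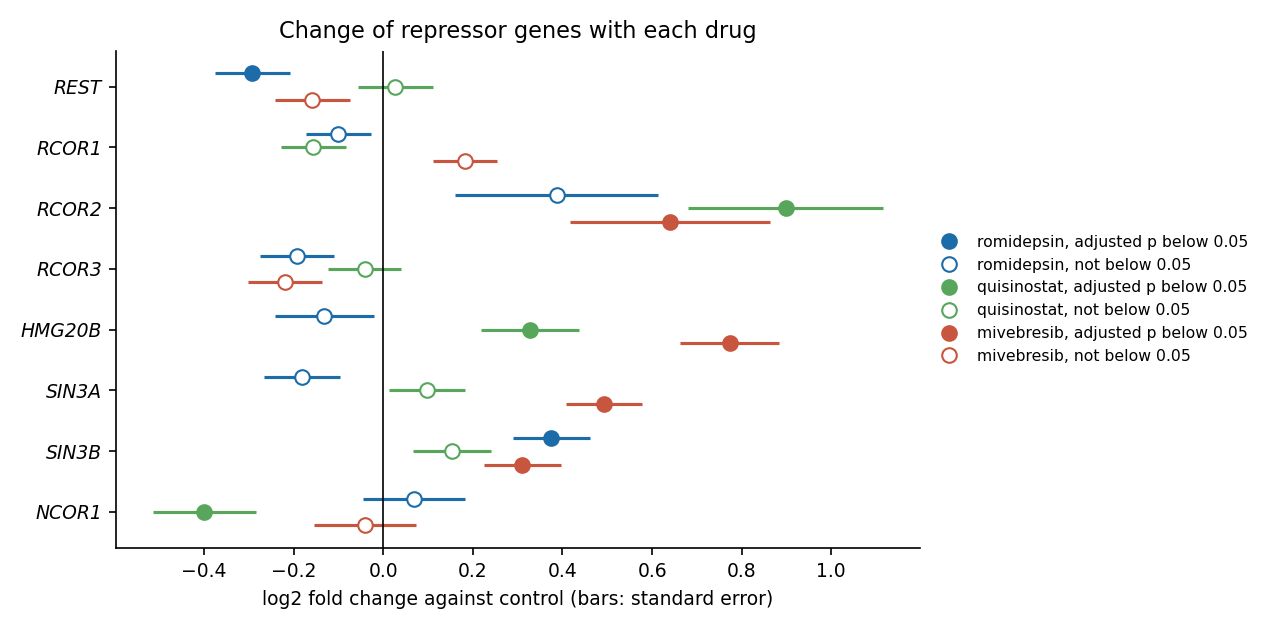
Log2 FC against control (horizontal axis) of each repressor gene with romidepsin, quisinostat and mivebresib, with bars for the standard error and filled points at an adjusted p below 0.05. The 2 points with the smallest adjusted p are the mivebresib rises of HMG20B (0.77) and SIN3A (0.49), and the widest bars belong to RCOR2, the gene with the fewest counts.

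Ratios of counts between related genes within the same library do not depend on how libraries are scaled. The SIN3A to SIN3B ratio was 1.35 and 1.55 in control, 1.01 and 0.961 with romidepsin, 1.40 and 1.39 with quisinostat and 1.71 and 1.59 with mivebresib. Romidepsin libraries thus held about as many SIN3B as SIN3A counts, without overlap with any other group. The RCOR2 to RCOR1 ratio was 0.0464 and 0.0546 in control, 0.0616 and 0.0800 with romidepsin, 0.115 and 0.0941 with quisinostat and 0.0604 and 0.0780 with mivebresib. It was lowest in control and highest with quisinostat, without overlap of either with another group. The RCOR1 to RCOR3 ratio was 1.25 and 1.30 in control, 1.35 and 1.37 with romidepsin, 1.21 and 1.14 with quisinostat and 1.62 and 1.75 with mivebresib, so that no group overlapped another and mivebresib was the highest. The REST to RCOR1 ratio was 1.24 and 1.39 in control, 1.16 and 1.14 with romidepsin, 1.45 and 1.54 with quisinostat and 1.0 and 1.08 with mivebresib, in the order mivebresib, romidepsin, control and quisinostat. With 2 libraries a group, the smallest p of a two-sided exact permutation test of a single ratio is 0.333, so these ratios were not tested.

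**Figure D3:**
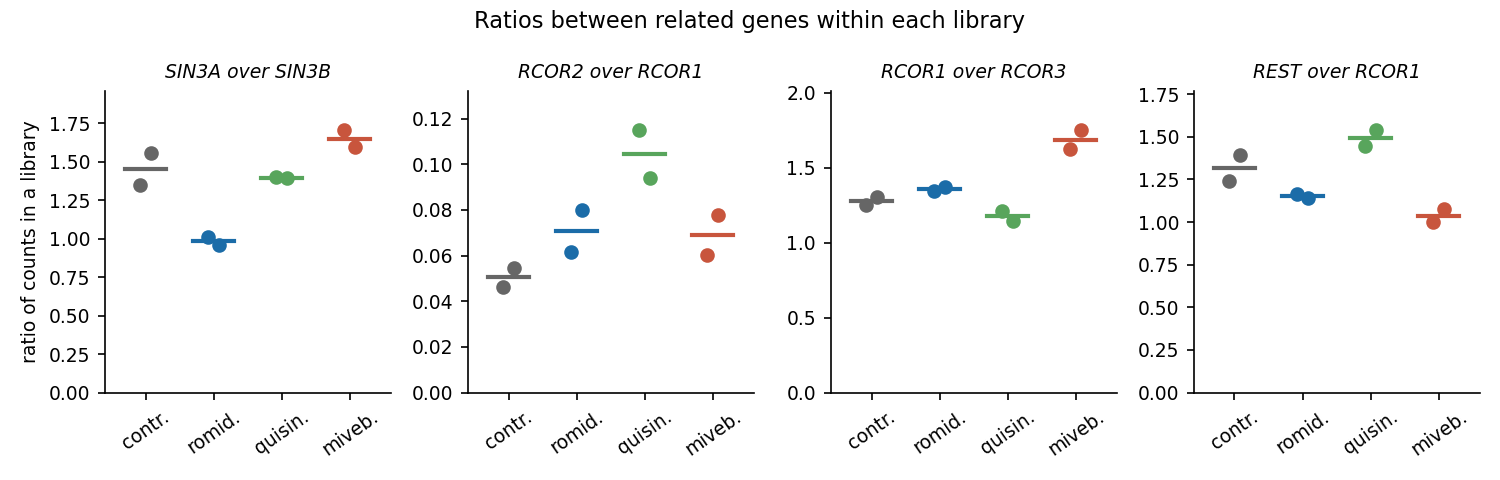
Ratio of counts between related genes (vertical axes from 0) in each library, with a line at the mean of the 2 libraries of a group. The SIN3A to SIN3B ratio is lowest with romidepsin (0.961 and 1.01) and the RCOR1 to RCOR3 ratio highest with mivebresib (1.62 and 1.75).

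Enzymes and accessory subunits that work with these scaffolds fell more often than they rose under TMM scaling, but with library size alone 12 rose and 5 fell with quisinostat, and 5 rose and 5 fell with romidepsin. Upper-quartile factors gave 8 rises and 7 falls with quisinostat, and 7 and 5 with romidepsin. Library size alone also moved the median log2 FC of all genes, from -0.0036 to 0.20 with quisinostat and from -0.012 to 0.059 with romidepsin. The shares of all genes called under these scalings are not given, so these counts are not compared with all genes. Of 46 listed partner genes 45 were tested, and 3 rose and 10 fell with romidepsin (15.2% and 15.8% of all genes), 3 rose and 15 fell with quisinostat (28.0% and 25.1%), and 6 rose and 17 fell with mivebresib (22.2% and 24.1%). Median log2 FC over the partners was -0.076, -0.15 and -0.083, and none passed beyond 1.5. The falls numbered 2 or 3 with romidepsin without romidepsin replicate 1 or 2, 5 without either quisinostat library and 6 without control replicate 1, and 8 with quisinostat without either quisinostat library. The rises with romidepsin numbered 6 or 7 without control replicate 1 or 2, those with quisinostat 7 without control replicate 1, and those with mivebresib 3 without either mivebresib library, while the mivebresib falls numbered 11 without mivebresib replicate 1.

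In each list that follows, the shares of all genes are 15.2% higher and 15.8% lower with romidepsin, 28.0% and 25.1% with quisinostat and 22.2% and 24.1% with mivebresib. Among the 12 CoREST partners, 1 rose and 3 fell with romidepsin, 0 and 3 with quisinostat and 1 and 5 with mivebresib (median log2 FC -0.021, -0.17 and -0.087). KDM1A, the demethylase of the complex, was at 115 and 114 CPM in control and at 150 and 151 CPM with romidepsin, and rose by a log2 FC of 0.39 (adjusted p = 0.00488), without passing for quisinostat (-0.17, adjusted p = 0.0843) or mivebresib (0.085, adjusted p = 0.370). The deacetylases HDAC1 and HDAC2 passed with no drug, with log2 FC between -0.17 and 0.079. CTBP1, a corepressor that binds several of these proteins, was at 102 and 89.8 CPM in control and fell to 57.3 and 56.9 with romidepsin and to 55.3 and 52.7 with quisinostat (log2 FC -0.75 and -0.83, adjusted p = 0.000518 and 8.75e-05), but was at 104 and 102 CPM with mivebresib. ZMYM3, a zinc finger subunit, fell with mivebresib from 26.8 and 29.6 to 11.5 and 11.7 CPM (-1.29, adjusted p = 1.5e-05). It fell less with romidepsin (-0.50, adjusted p = 0.00331). PHF21A, which reads unmethylated histone H3, fell with mivebresib (-0.55, adjusted p = 0.00143).

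Among the 16 SIN3 partners, 1 rose and 5 fell with romidepsin, 2 rose and 4 fell with quisinostat and 2 rose and 4 fell with mivebresib (median log2 FC -0.17, -0.0054 and 0.073). MORF4L1, a chromodomain protein of the SIN3B complex, fell with quisinostat from 389 and 348 to 237 and 205 CPM (-0.74, adjusted p = 0.000493), and the histone chaperone RBBP4 fell with quisinostat from 146 and 142 to 90.8 and 85.0 CPM (-0.72, adjusted p = 9.84e-05). Libraries of the other drugs also lay below control. MORF4L1 was at 254 to 256 CPM with romidepsin and 282 to 309 with mivebresib, and RBBP4 at 107 to 110 and 128 to 130. ARID4A rose with both HDAC inhibitors (0.50 with romidepsin, adjusted p = 0.00783, and 0.49 with quisinostat, adjusted p = 0.00392). BRMS1L rose with mivebresib (0.69, adjusted p = 0.000795). Of the 6 NCoR partners, 1 rose and 0 fell with romidepsin, 1 rose and 2 fell with quisinostat and 2 rose and 2 fell with mivebresib (median log2 FC 0.15, 0.16 and -0.021). HDAC3, the catalytic subunit, rose with mivebresib from 71.4 and 57.2 to 111 and 115 CPM (0.81, adjusted p = 0.000374). CORO2A, an actin-binding subunit, rose with quisinostat from 8.40 and 8.80 to 19.6 and 19.2 CPM (1.17, adjusted p = 2.47e-05). It rose less with romidepsin (0.50, adjusted p = 0.00588).

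A further list holds proteins that assist REST or set its amount in the cell. Of the 12 listed, 11 were tested: 0 rose and 2 fell with romidepsin, 0 rose and 6 fell with quisinostat, and 1 rose and 6 fell with mivebresib (median log2 FC -0.089, -0.25 and -0.34), against 15.8%, 25.1% and 24.1% of all genes lower. CTDSP1, a phosphatase that stabilises REST, was at 95.9 and 75.0 CPM in control, 52.9 and 53.9 with romidepsin and 47.3 and 37.1 with mivebresib. It fell with both drugs (-0.68, adjusted p = 0.00842, and -1.02, adjusted p = 0.000612). BTRC, the ubiquitin ligase subunit that marks REST for degradation, rose with mivebresib (0.30, adjusted p = 0.0153). USP7, which removes that mark, fell with quisinostat (-0.37, adjusted p = 0.00473). FBXW11, of the same list, averaged 215 CPM in control against 27.6 for BTRC. It fell with quisinostat (-0.25, adjusted p = 0.0309) and did not pass with mivebresib (-0.18, adjusted p = 0.0989). PRICKLE1, which binds REST and affects its place in the cell, fell with mivebresib from 12.0 and 11.8 to 4.43 and 4.46 CPM (-1.42, adjusted p = 2.13e-05). It fell less with romidepsin (-0.30, adjusted p = 0.0477). SRRM4, the splicing factor that makes a truncated neuronal form of REST, was not tested at 0 to 12 counts per library. Gene counts do not tell REST splice forms apart, and protein was not measured.

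**Figure D4:**
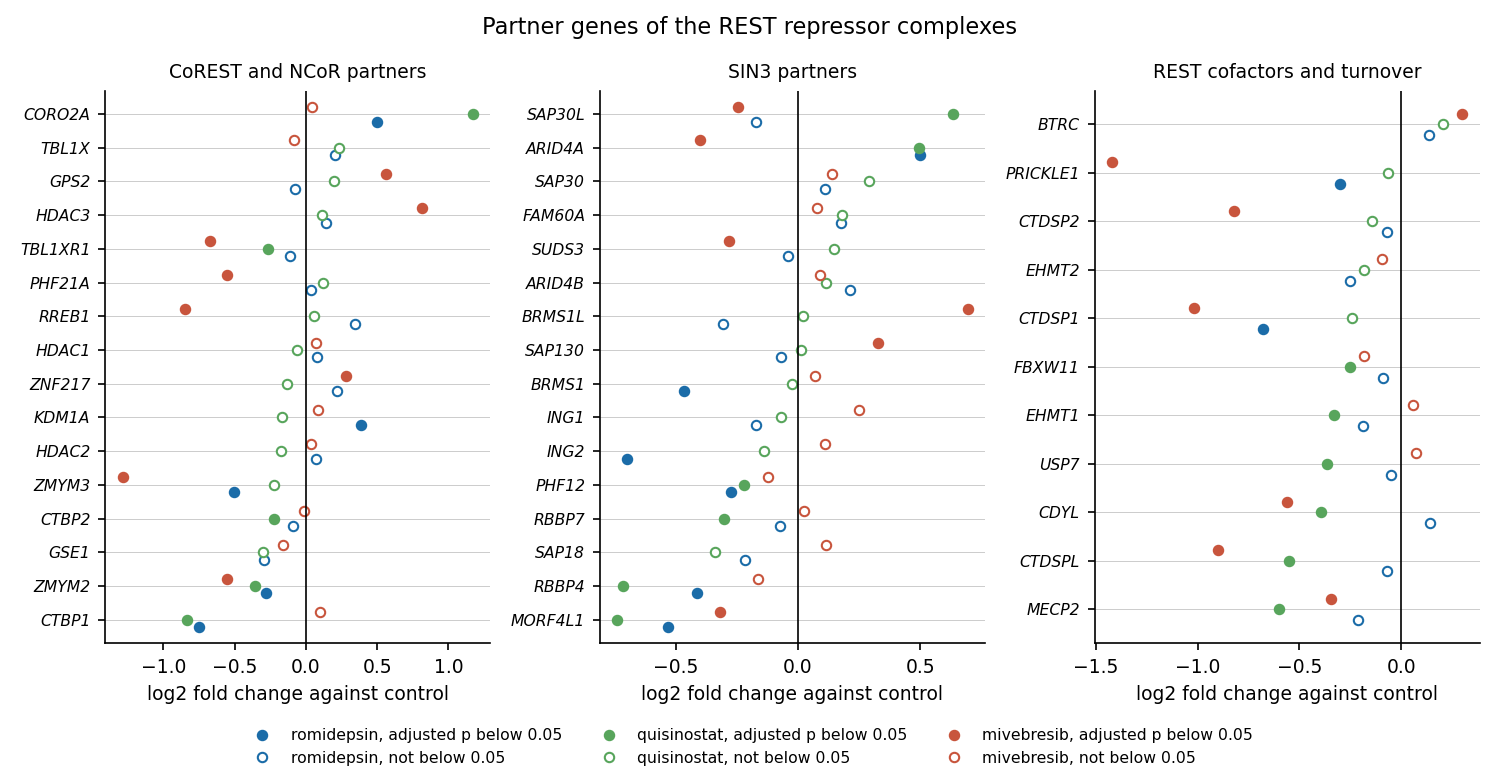
Log2 FC against control (horizontal axes) of partner genes of CoREST and NCoR, of SIN3, and of REST itself, with filled points at an adjusted p below 0.05. The points farthest to the left are mivebresib falls of PRICKLE1 (-1.42) and ZMYM3 (-1.29), and the farthest to the right is CORO2A with quisinostat (1.17).

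Of 42 known target genes of REST, 30 were tested, and more of these passed as higher than as lower with each drug. Part of the 30 entered the tests only through drug libraries. Of the 42 listed targets 30 passed the filter on low counts, and 14 rose and 1 fell with romidepsin, 24 rose and 0 fell with quisinostat and 15 rose and 3 fell with mivebresib, while 15.2%, 28.0% and 22.2% of all genes rose. With romidepsin only 6 rose without either romidepsin library, and 9 without control replicate 1 or when only the libraries compared were fitted. Median log2 FC over the tested targets was 0.70, 1.74 and 0.76, and 7, 17 and 7 rose beyond 1.5, a threshold passed upwards by 3.77%, 11.2% and 3.96% of all genes. A gene silent or with few counts in control, such as STMN2, SYN1 or CHAT, could pass the filter only through a drug group. Tested targets of this kind had control means from 0.018 to 0.34 CPM. Such genes are part of these counts and medians and favour rises. The figures therefore describe the tested genes and not all 42, and they are no test of a rise of REST targets. With only genes of a mean CPM of at least 5, which leaves out STMN2, SYN1 and CHAT, 7, 12 and 9 targets rose. In that fit 1 fell with romidepsin and 0 with quisinostat. The mean covers all 8 libraries, so a gene high only in drug libraries could still pass. The share of all genes that rose under this filter is not given, so these counts are not compared with all genes. The other 12 had at most 11 counts in any library, among them SCN2A, a neuronal sodium channel gene, with 7 and 1 counts with quisinostat and 0 elsewhere.

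SYN1, which carries the exact RE1 core in its promoter, had 7 and 5 counts in control, 54 and 54 with romidepsin, 172 and 196 with quisinostat and 62 and 56 with mivebresib. All drug libraries lay above control. SYN1 passed the filter on low counts only through the drug libraries, where it is high, so no test of it is given. GRIA2, a glutamate receptor gene, and DRD3, a dopamine receptor gene, which carry the core as well, had 0 counts in all 8 libraries, which allows up to 3 counts a library. VGF, with 1 mismatch, was at 91.2 and 102 CPM in control and 115 and 169 with quisinostat, where it rose (0.56, adjusted p = 0.0219), while romidepsin and mivebresib did not pass (0.44 and 0.38, adjusted p = 0.0796 and 0.0971). Genes with the core in these windows thus ranged from undetected to higher counts in every drug library than in control.

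Several neuronal targets rose with both HDAC inhibitors and did not rise with mivebresib. SNAP25, a fusion protein of synaptic vesicles, had 15 and 15 counts in control, 31 and 27 with romidepsin, 251 and 244 with quisinostat and 10 and 6 with mivebresib. It rose with romidepsin (0.88, adjusted p = 0.0384) and quisinostat (3.85, adjusted p = 4.27e-06) and did not pass with mivebresib (-0.88, adjusted p = 0.0782), which was below romidepsin (-1.77, adjusted p = 0.00165) in the direct test. UNC13A, which primes vesicles, went from 9.85 and 12.7 CPM in control to 41.1 and 37.1 with romidepsin and 116 and 123 with quisinostat, but to 4.5 and 3.96 with mivebresib (log2 FC 1.79, 3.41 and -1.42, adjusted p = 8.84e-05, 9.21e-07 and 0.000124). BDNF, a neurotrophin, followed the same directions (0.48, 0.73 and -1.38, adjusted p = 0.00604, 0.000302 and 1.93e-05). CHAT, which makes acetylcholine, had 9 and 10 counts in control, 26 and 44 with romidepsin, 191 and 181 with quisinostat and 0 and 2 with mivebresib. It passed the filter on low counts only through the HDAC inhibitor libraries, where it is high, so no test of it is given. STMN2, a regulator of microtubules, had 1 and 0 counts in control, 7 and 9 with romidepsin, 37 and 17 with quisinostat and 1 and 0 with mivebresib. It passed the filter on low counts only through the quisinostat libraries, where it is high, so no test of it is given.

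Among the targets that rose with mivebresib were SYP, TUBB3 and SCN3B. SYP, a synaptic vesicle protein, had 14 and 26 counts in control, 43 and 46 with romidepsin, 350 and 357 with quisinostat and 159 and 160 with mivebresib, and rose with each drug (1.08, 3.95 and 3.0, adjusted p = 0.0177, 4.19e-06 and 2.47e-05). TUBB3, the neuronal tubulin, was at 80.5 and 76.3 CPM in control, 45.9 and 47.6 with romidepsin, 96.7 and 85.1 with quisinostat and 386 and 348 with mivebresib. It fell with romidepsin (-0.75, adjusted p = 0.000904), did not pass with quisinostat (0.21, adjusted p = 0.0894) and rose with mivebresib (2.23, adjusted p = 2.31e-06). SCN3B, a sodium channel subunit, rose with quisinostat (2.63, adjusted p = 0.000522) and mivebresib (2.44, adjusted p = 0.00107) and did not pass with romidepsin (0.14, adjusted p = 0.849), and L1CAM, an adhesion protein, rose with quisinostat (0.48, adjusted p = 0.0469) and mivebresib (0.51, adjusted p = 0.0412) but not past the threshold with romidepsin (0.34, adjusted p = 0.175).

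**Figure D5:**
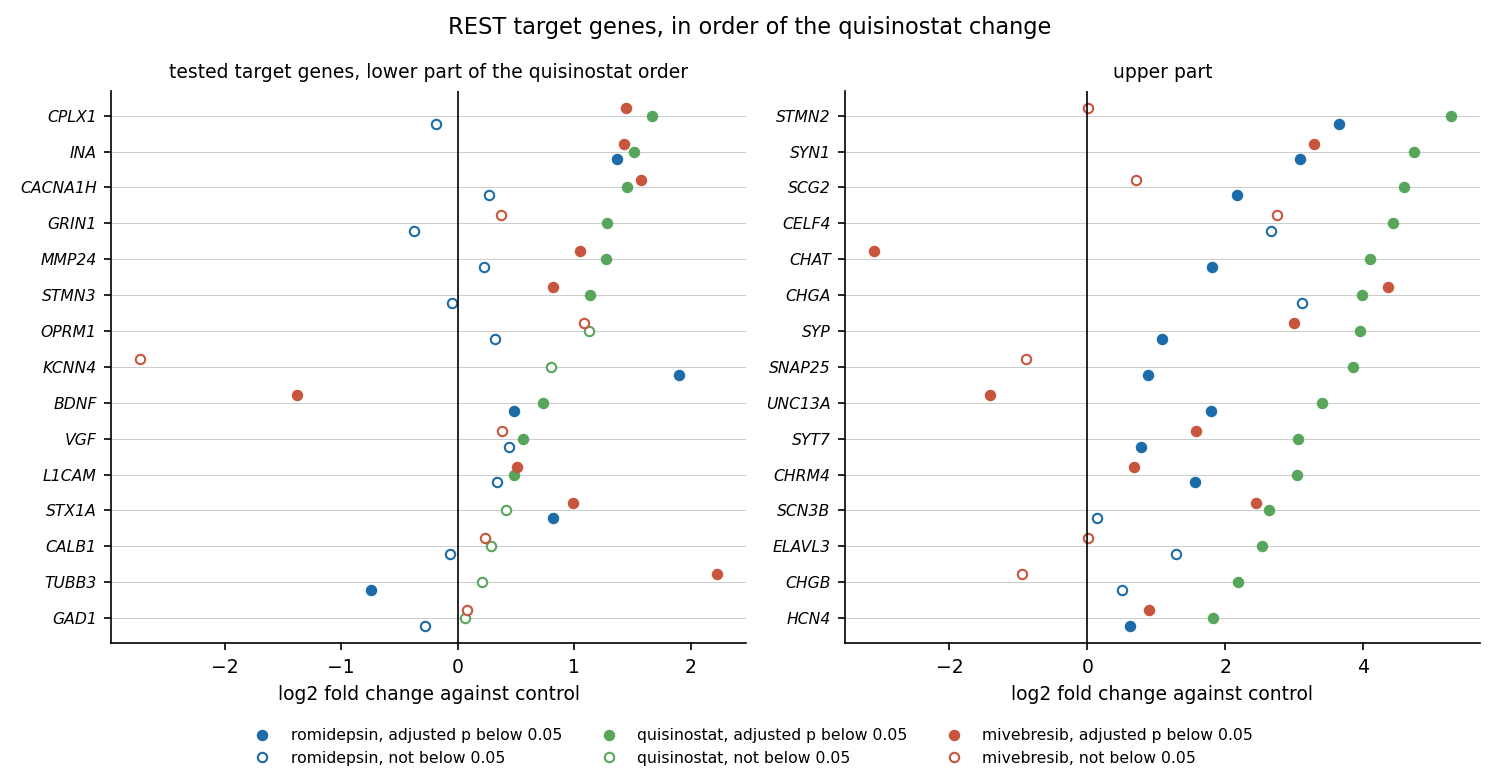
Log2 FC against control (horizontal axes) of the 30 tested REST target genes, in order of the quisinostat change, with filled points at an adjusted p below 0.05. Quisinostat points are all above 0, whereas mivebresib points lie on both sides. UNC13A (-1.42) and BDNF (-1.38) are among the mivebresib falls, and SYP (3.0) and TUBB3 (2.23) among the rises. Fitted values of genes with few counts, such as STMN2 and CHAT, depend on the prior count. STMN2, SYN1 and CHAT passed the filter on low counts only through drug libraries, as did other targets with control means from 0.018 to 0.32 CPM. Filled points of these genes are not taken as tests.

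Over the 8 libraries, the genes closest to REST among 9839 whose log2 CPM averaged 3 or more were MON1B, NEDD1, FOXC1, ZNF587 and ZBTB45. Their root mean square distance from REST in log2 CPM centred on control was 0.057, 0.060, 0.069, 0.078 and 0.079. Among the repressor genes, RCOR3 was nearest to REST at 0.10 and HMG20B farthest at 0.52, with RCOR2 below the level needed for this measure.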

How the data were processed

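Bulk RNA was measured in 8 libraries of MP38 cells, grouped by treatment from the sample labels. The authors deposited whole-number counts per gene symbol, without normalization; hg38 is named in the submitters' processing notes, and the aligner, annotation and use of strand in counting are not given in the sources used here. Libraries were strand-specific mRNA libraries. Deposited log CPM and quantile-normalized tables were not used here.

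Counts were fitted with edgeR 4.0.16 in R 4.3.3: filterByExpr by group, TMM factors, glmQLFit and glmQLFTest on a single model of all 8 libraries, and Benjamini-Hochberg adjustment over 15085 genes. The biological coefficient of variation was 9.38%. A gene passed at an adjusted p below 0.05. The study itself used limma. CPM are TMM-scaled, and log2 CPM used a prior count of 2. Depth was 28483235 to 29359024 counts, and floors cover counting error only. Positions, overlaps and transcript lengths came from GENCODE 29. FAM60A stood for SINHCAF through RefSeq synonyms.

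The 8 genes, the partner, target and marker lists and the motif were chosen with earlier results of these data known. Partner and target genes are named if preset or among the 3 largest rises or falls per drug past the threshold and an average log2 CPM not below 0. MFSD12, PIGL, GRIA2 and DRD3 are named for an overlap or sequence match, after their values were seen. FBXW11 is named beside BTRC, also after its values were seen. Some partner genes are counted in their lists but not reported here singly. The fit was tested on simulated data.

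Alternatives were DESeq2 1.42.0, limma-voom (limma 3.58.1), library size alone or upper-quartile factors for TMM, no filter or a mean CPM of 5 or more for filterByExpr, fits of only the libraries compared, a replicate block, and leaving out each library in turn. A block with romidepsin numbers crossed was added after seeing the data. Sequences and figures were handled with Python 3.11.15, pandas 2.3.3, numpy 2.4.6 and matplotlib 3.10.9.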

Additional observations from a re-analysis of the deposited data

How the results depend on the processing

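Precision is limited by having 2 libraries a group and, for genes of few counts such as RCOR2, also by depth. Same-numbered libraries did not deviate together (correlations of deviations from the group means -0.16 to 0.16), so replicate numbers were not taken as pairs; a replicate block left the call of every member gene except RCOR2 with mivebresib (0.64, adjusted p = 0.0528). A block with romidepsin numbers crossed gave 2 member genes lower with romidepsin, 2 higher against quisinostat and 7 partners higher with romidepsin. The cause of the changes below was not tested. Values that changed sign had not passed: with library size alone, 0.044 for RCOR1 and 0.16 for RCOR3 with quisinostat, -0.073 for RCOR1 (romidepsin minus quisinostat) and -0.022 for SIN3B (mivebresib minus quisinostat); with upper-quartile factors, 0.088 for RCOR3 with quisinostat and 0.0061 for NCOR1 with mivebresib; with a mean CPM of at least 5, 0.053 for RCOR3 with quisinostat. Without control replicate 1, HMG20B with romidepsin turned to 0.038 (from -0.27 over all libraries left out), NCOR1 with romidepsin to -0.063 (up to 0.24), REST with quisinostat to -0.037 (up to 0.083) and RCOR3 with quisinostat to 0.011 (from -0.10). REST with quisinostat also did so without quisinostat replicate 2 (-0.010), and NCOR1 with mivebresib without control replicate 2 (0.13) or mivebresib replicate 1 (0.036), from -0.20. For mivebresib minus romidepsin, RCOR3 did so without romidepsin replicate 1 (0.0078) or mivebresib replicate 2 (0.019), from -0.074, and SIN3B without mivebresib replicate 1 (0.025), from -0.16.

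With library size alone, 0 member genes were lower with romidepsin, 4 higher and 0 lower with quisinostat, 5 lower with romidepsin than with quisinostat, and 0 higher and 2 lower with mivebresib than with quisinostat; 5 partners were higher and 5 lower with romidepsin, and 12 and 5 with quisinostat. Upper-quartile factors gave 0 member genes lower with romidepsin and 0 with quisinostat, 2 lower with mivebresib than with quisinostat, 7 partners higher and 5 lower with romidepsin, and 8 and 7 with quisinostat. A mean CPM of at least 5 gave the same 0, 0 and 2 for member genes, 6 partners higher and 6 lower with romidepsin, 8 and 9 with quisinostat, and, with fewer genes tested, 7, 12 and 9 targets higher with romidepsin, quisinostat and mivebresib. Fitting only the libraries compared gave 0 member genes lower with romidepsin, 1 higher and 0 lower with quisinostat, 2 higher with mivebresib and 2 higher with romidepsin than with quisinostat, 5 partners lower with romidepsin, 8 lower with quisinostat, 2 higher and 10 lower with mivebresib, and 9 targets higher with romidepsin. No filter on low counts gave 1 member gene higher with quisinostat, and DESeq2 and limma-voom gave 5 partners higher with romidepsin each. Shares of all genes called under these settings are not given.

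Leaving out each library in turn gave, for member genes, 0 to 1 higher and 0 to 2 lower with romidepsin, 0 to 2 and 0 to 1 with quisinostat, and 2 to 4 and 0 to 1 with mivebresib; 0 to 2 and 0 to 3 for romidepsin against quisinostat, 2 to 3 and 0 to 0 for mivebresib against romidepsin, and 2 to 4 and 0 to 1 for mivebresib against quisinostat. Partners numbered 2 to 7 higher and 2 to 11 lower with romidepsin, 3 to 7 and 8 to 18 with quisinostat, and 3 to 8 and 11 to 17 with mivebresib. Targets numbered 6 to 14 higher and 1 to 1 lower with romidepsin, 19 to 24 and 0 to 0 with quisinostat, and 12 to 15 and 2 to 3 with mivebresib. A group left with a single library was assumed to vary like the others.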
